A study of Saccharomyces cerevisiae with 8 samples.

Results

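Aminoacyl-tRNA synthetase genes of budding yeast were followed through a short heat shock with and without prior treatment against Ifh1, a protein that coactivates ribosomal protein genes. The set was chosen by gene symbol and held 33 of the 6034 coding targets in the abundance tables: 20 genes of cytosolic translation, which are 19 synthetase genes and the cofactor gene ARC1, and 13 genes of mitochondrial enzymes. All 33 had a row in every library and passed the filter on low counts, and each has a single coding exon in the RefSeq annotation of assembly R64. The cytosolic enzymes for arginine, proline and cysteine are outside the set and are given separately.

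A synthetase joins an amino acid to its tRNA, and each amino acid needs its own enzyme. Cytosolic and mitochondrial protein synthesis use separate enzymes for most amino acids, and all of the genes described here are nuclear. ALA1, GRS1, HTS1 and VAS1 are known to encode both forms of their enzyme from a shared gene, so their transcripts cannot be assigned to the cytosol alone.

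The cells were Saccharomyces cerevisiae labelled W303a, grown at 30 °C in rich medium (YPD) with 2% dextrose to an optical density of 0.2 to 0.4 and then kept for 5 min at 30 °C or at 39 °C. Of the 4 groups of 2 libraries, the 30 °C and 39 °C groups without 5ph-IAA are called control and heat shock here, and the 30 °C and 39 °C groups with 5ph-IAA had the depletion treatment. The labels' protocol gives that treatment as 5 µM 5ph-IAA, a compound related to auxin and used to degrade proteins that carry a degron, with 1 µM β-estradiol for 30 min. The design text speaks of anchor away instead, and no source used here says what the untreated cells received, whether treated and untreated cells were of the same modified strain, or whether replicates came from separate cultures. The p-values therefore measure the spread between these libraries, which may be technical.

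Libraries held 7717767 to 21025464 estimated counts, and the heat shock libraries without 5ph-IAA were the deepest. Each group's libraries differed by more than counting noise, so none was a copy of another. IFH1 itself stood at 24.1 and 22.6 TPM (transcripts scaled to a fixed library total) in the control libraries and at 26.6 and 24.0 TPM with 5ph-IAA at 30 °C, and was at 10.1 and 9.06 TPM after heat shock and 13.7 and 14.3 TPM after heat shock with 5ph-IAA. A treatment that acts on the protein cannot be checked by these transcript levels. Ribosomal protein genes took 39.7% and 40.6% of TPM in control, 19.3% and 19.8% after heat shock, 17.1% and 17.3% with 5ph-IAA at 30 °C and 10.3% in both libraries with the combination. The a-cell genes STE2, STE6, BAR1 and AGA2 with MFA1 and MFA2 summed to 742 to 776 TPM in control and 227 to 245 TPM after heat shock, and to 1090 to 1100 and 496 to 498 TPM in the same 2 conditions with 5ph-IAA. In TPM 89.0% of tested genes were higher without overlap with 5ph-IAA at 30 °C than in control. By scaled counts in edgeR, 3 of the 4 tested a-cell genes were called lower there and 1 higher, against 28.1% and 23.6% of all tested genes. The alpha-cell genes summed to between 25.8 and 53.5 TPM in all libraries, while the a-factor genes MFA1 and MFA2, whose coding sequences are very short, were listed at 0 in all of them. TPM and scaled counts are relative, so RNA per cell was not measured, and in bulk RNA a change in every cell and a change in some of the cells cannot be told apart.

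In control cells the cytosolic members were far above the mitochondrial ones. Their TPM summed to 5604 and 5374, against 316.9 and 305.7 for the mitochondrial members, a ratio of 17.7 and 17.6. ARC1, which encodes a tRNA-binding cofactor of the methionine and glutamate enzymes, was the highest at 673.6 and 657.8 TPM. KRS1, for lysine, followed at 613.0 and 581.7 TPM. GRS2, the paralog of GRS1, stood apart from the other cytosolic members, at 14.4 and 12.7 TPM against 350.6 and 328.7 TPM for GRS1. Next above GRS2 came CDC60, for leucine, at 127.9 and 121.8 TPM. The mitochondrial members lay between the 16.7 and 16.8 TPM of ISM1, for isoleucine, and the 42.4 and 39.3 TPM of MSK1, for lysine. No cytosolic member other than GRS2 was below MSK1 in either 30 °C group. The values of a member in the libraries of a group differed by 0.025% to 16.5%, with a median of 3.97%. Most mitochondrial members lay within a few TPM of each other, and neighbours in their order were not separated beyond that spread.

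**Figure D1:**
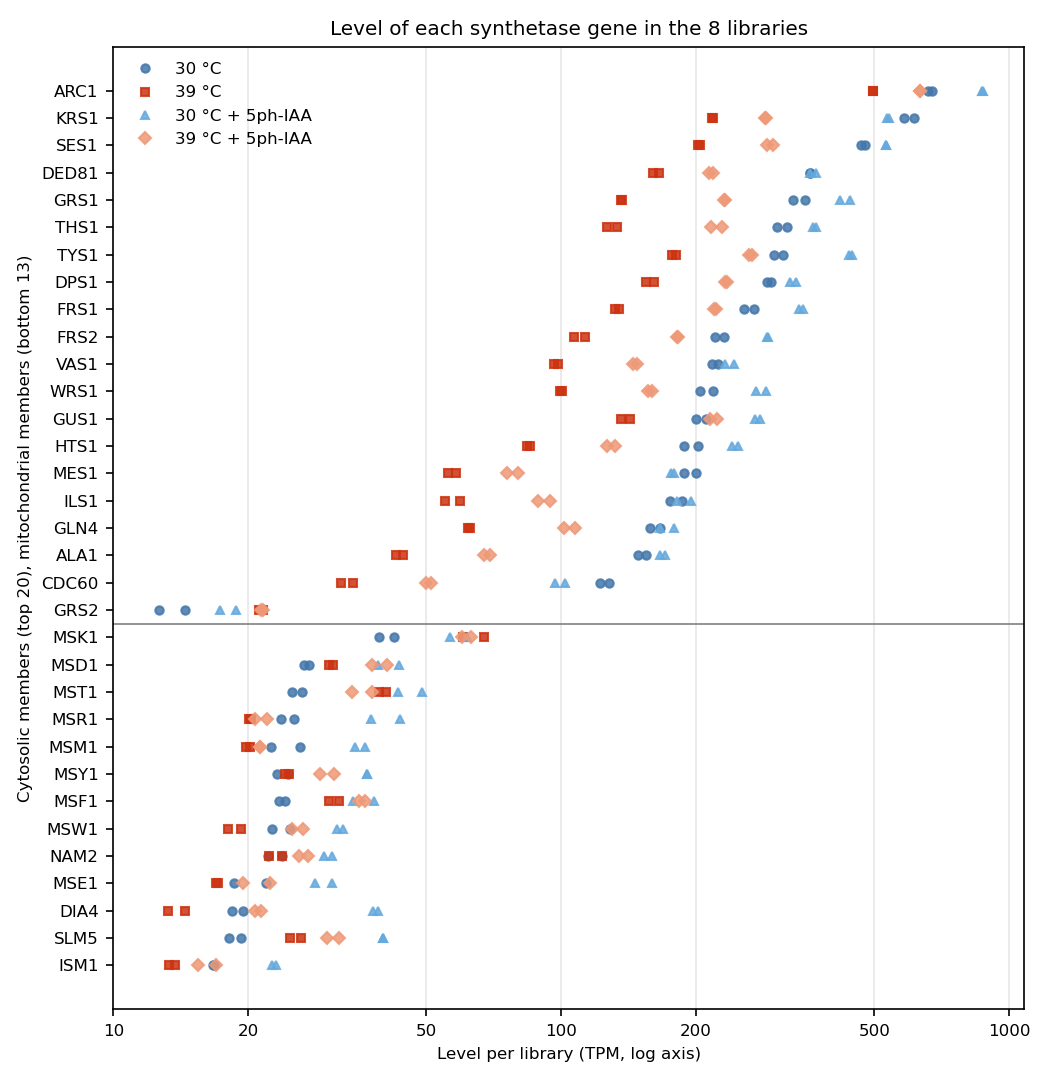
TPM (log axis) of the 20 cytosolic and 13 mitochondrial members in each of the 8 libraries, 1 point per library, ordered by control level within each class. Control points of CDC60 at 127.9 and 121.8 TPM drop to 34.3 and 32.2 TPM after heat shock, while the points of MSK1 move from 42.4 and 39.3 up to 67.4 and 60.2 TPM.

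The leucine enzymes, CDC60 and NAM2, had the lowest ratio of cytosolic to mitochondrial level in control among 12 such pairs and are shown with the 300 bases before their coding starts. NAM2 is also known for a role in splicing of mitochondrial introns. The windows are chromosome sequence of assembly R64 by the RefSeq annotation, chrXVI:246690-246989, plus strand, for CDC60 and chrXII:884752-885051, minus strand, for NAM2, and each is written 5′ to 3′ on the strand of its gene. Capitals mark AAATTTT on either strand (its reverse complement is AAAATTT), the core of the rRNA processing element (RRPE), a sequence known from promoters of ribosome biogenesis genes.
CDC60: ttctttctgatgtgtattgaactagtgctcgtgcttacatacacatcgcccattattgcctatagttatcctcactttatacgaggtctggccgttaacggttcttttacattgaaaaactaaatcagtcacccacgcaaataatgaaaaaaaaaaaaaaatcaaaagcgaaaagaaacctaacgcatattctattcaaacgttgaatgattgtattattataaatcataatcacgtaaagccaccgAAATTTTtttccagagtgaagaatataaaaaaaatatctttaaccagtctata
NAM2: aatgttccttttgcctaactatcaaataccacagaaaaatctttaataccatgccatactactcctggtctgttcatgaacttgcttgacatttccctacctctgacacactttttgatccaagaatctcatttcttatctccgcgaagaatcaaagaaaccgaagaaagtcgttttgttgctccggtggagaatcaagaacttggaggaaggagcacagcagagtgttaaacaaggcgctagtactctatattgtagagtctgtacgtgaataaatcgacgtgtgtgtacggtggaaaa

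CDC60 held a single AAATTTT that began 53 bases before the coding start. NAM2 held none, and its window had TTCNNGAA, a short form of the heat shock element, from 228 bases before the start.

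The glycine paralogs GRS1 and GRS2 are shown in the same way because their levels moved in opposite directions on heat shock. Their coding sequences, 2004 and 1857 bases long, were 65.9% identical over 1844 aligned bases. On the coding strand they shared no run of 31 bases, and no member shared such a run with any other coding sequence. Among coding strands, an exact match of that length or longer is thus to a single member. Opposite strands and sequence outside coding regions were not compared. The GRS1 window is chrII:483368-483667, minus strand, and the GRS2 window is chrXVI:703971-704270, minus strand.
GRS1: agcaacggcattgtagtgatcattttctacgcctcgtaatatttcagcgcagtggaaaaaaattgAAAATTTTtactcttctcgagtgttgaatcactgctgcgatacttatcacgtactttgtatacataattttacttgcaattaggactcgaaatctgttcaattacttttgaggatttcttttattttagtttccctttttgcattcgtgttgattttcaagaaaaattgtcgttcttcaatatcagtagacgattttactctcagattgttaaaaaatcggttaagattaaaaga
GRS2: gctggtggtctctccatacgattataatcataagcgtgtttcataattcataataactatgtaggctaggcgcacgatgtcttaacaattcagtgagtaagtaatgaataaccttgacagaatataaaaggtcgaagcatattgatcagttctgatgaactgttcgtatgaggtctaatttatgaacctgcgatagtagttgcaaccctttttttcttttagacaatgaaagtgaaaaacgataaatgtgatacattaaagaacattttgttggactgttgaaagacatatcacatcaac

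GRS1 carried AAAATTTT, in which the motif overlaps its own reverse complement, from 235 bases before the coding start. The GRS2 window held none of the 5 motifs searched and reaches into DIB1, the neighbouring gene on the same strand.

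AAATTTT was found before 16 of 20 cytosolic members (80.0%) and before 1 of 13 mitochondrial members (7.69%). Among all 5720 windows of tested genes 25.1% held it, and among 74 ribosome biogenesis genes 95.9%. GATGAG, the core of the polymerase A and C element (PAC) that often accompanies it in ribosome biogenesis promoters, was before 15% of cytosolic members and 94.6% of ribosome biogenesis genes, with 19% in all windows. Just 1 cytosolic member, GUS1, held both. TGACTC, a core of the site of Gcn4, the activator of amino acid synthesis genes, was before 35.0% of cytosolic and 7.69% of mitochondrial members, with 7.87% in all windows. AGGGG, the core of the stress response element, was before 5.0% of cytosolic and 23.1% of mitochondrial members, with 22.3% in all windows. TTCNNGAA was before 30.0% and 30.8% of the classes, with 13% in all windows. All 5 were searched on both strands, a match is a description of sequence and not of binding, and 16 of the 33 windows reach an annotated neighbouring gene.

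The cytosolic members without AAATTTT were ALA1, DPS1, GRS2 and KRS1, and MSM1, for methionine, was the mitochondrial member with it. The 31 bases around the match nearest the coding start are shown for genes of shared complexes and for MSM1, from the same assembly and written 5′ to 3′ on the strand of the gene. FRS1 (chrXII:260872-260902, plus strand) and FRS2 (chrVI:95229-95259, minus strand) encode the subunits of the phenylalanine enzyme. ARC1 (chrVII:307326-307356, plus strand), GUS1 (chrVII:38871-38901, plus strand) and MES1 (chrVII:1021935-1021965, minus strand) encode the cofactor and the glutamate and methionine enzymes it binds. MSM1 is at chrVII:842598-842628, minus strand.
FRS1: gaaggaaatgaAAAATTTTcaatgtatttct
FRS2: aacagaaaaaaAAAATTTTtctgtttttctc
ARC1: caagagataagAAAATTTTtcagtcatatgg
GUS1: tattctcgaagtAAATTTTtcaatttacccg
MES1: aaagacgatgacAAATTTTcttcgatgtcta
MSM1: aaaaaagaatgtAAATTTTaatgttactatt

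The matches of FRS1, FRS2 and ARC1 are the 8-base palindrome AAAATTTT, and those of GUS1, MES1 and MSM1 are the 7-base core. Matches of cytosolic members began 53 to 238 bases before the coding start.

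**Figure D2:**
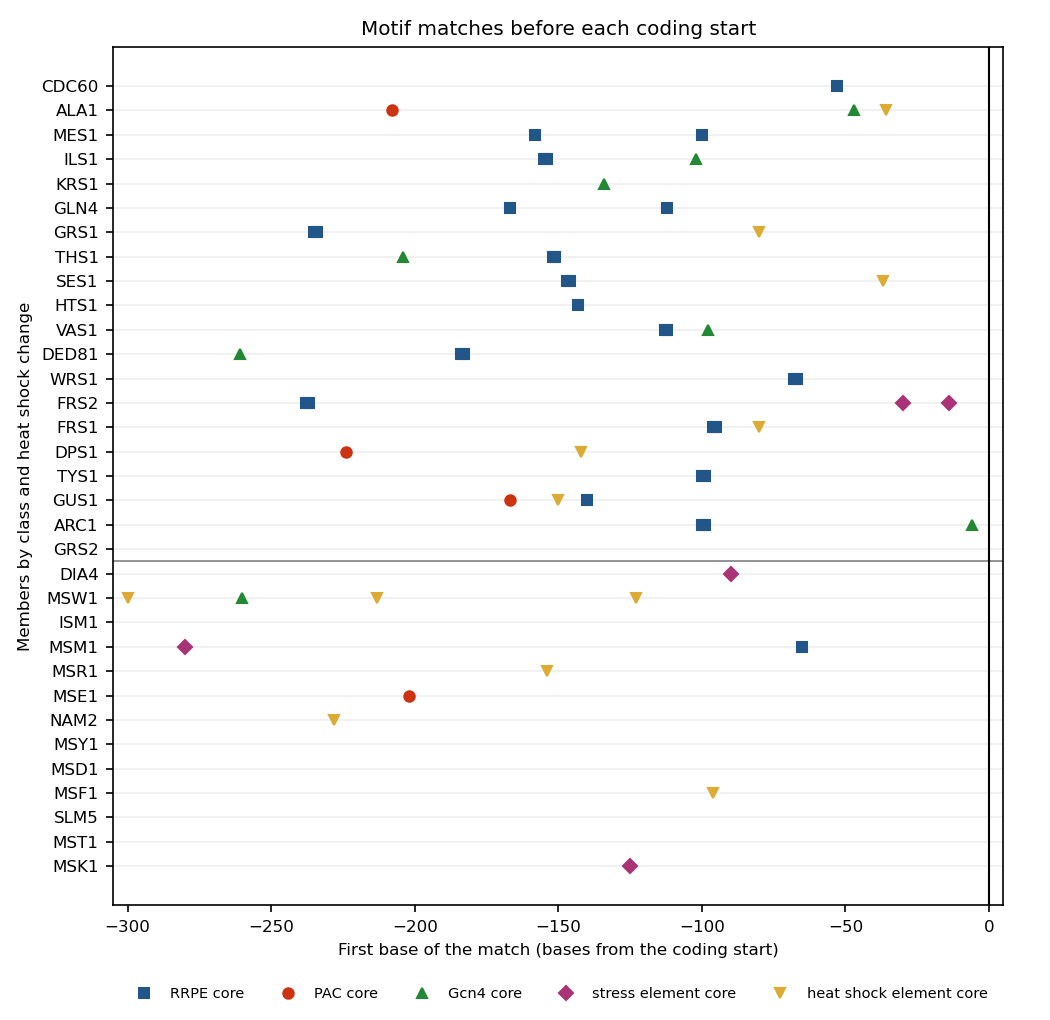
Position of each motif match in the 300 bases before the coding start of each member, in bases from that start, with 1 row per member ordered by class and by its change after heat shock. Squares (RRPE core) fill 16 of the 20 cytosolic rows and 1 of the 13 mitochondrial rows.

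Heat shock without 5ph-IAA lowered 19 of 20 cytosolic members and raised GRS2, the remaining one. The mitochondrial members were divided, with 6 lower, 4 higher and 3 not called. Over all 5734 tested genes, 82.2% were called in either direction, 39.7% lower and 42.5% higher (edgeR quasi-likelihood test, Benjamini-Hochberg adjusted p under 0.05). The median log2 fold change was −1.32 over the cytosolic members, −0.13 over the mitochondrial members and 0.04 over all tested genes. Of the cytosolic members 16 were more than 2-fold lower, and no mitochondrial member changed by as much.

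CDC60 dropped from 127.9 and 121.8 TPM in control to 34.3 and 32.2 TPM, a log2 change of −2.04 ± 0.04 (SE; edgeR adjusted p = 2.93e-14). ALA1, for alanine, went from 154.6 and 148.7 to 44.4 and 42.8 TPM, a log2 change of −1.93 ± 0.04 (edgeR adjusted p = 4.76e-14). For both genes the heat shock libraries lay below all control libraries by a wide margin. At the other end ARC1 went from 673.6 and 657.8 to 496.1 and 495.8 TPM, a log2 change of −0.55 ± 0.04 (edgeR adjusted p = 1.9e-08). ARC1 was the smallest called decrease among the cytosolic members and still had no overlap between the groups.

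GRS2 and GRS1 moved in opposite directions. GRS2 rose from 14.4 and 12.7 TPM to 21.2 and 21.6 TPM, a log2 change of 0.53 ± 0.08 (edgeR adjusted p = 2.02e-05), while GRS1 fell from 350.6 and 328.7 to 136.3 and 136.8 TPM, a log2 change of −1.44 ± 0.04 (edgeR adjusted p = 5.87e-13). The ratio of GRS1 to GRS2 thus went from 24.3 and 26.0 to 6.45 and 6.33. GRS1 remained the more abundant of the paralogs in every library.

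The mitochondrial members that rose were MSK1, MST1 (threonine), SLM5 (asparagine) and MSF1 (phenylalanine). MSK1 went from 42.4 and 39.3 to 67.4 and 60.2 TPM, a log2 change of 0.51 ± 0.06 (edgeR adjusted p = 2.56e-06). MST1 went from 25.1 and 26.4 to 39.2 and 40.7 TPM, a log2 change of 0.50 ± 0.09 (edgeR adjusted p = 0.00015). SLM5 changed by 0.32 ± 0.07 and MSF1 by 0.26 ± 0.07 on the log2 scale, with edgeR adjusted p of 0.00126 and 0.00484, and DESeq2 did not call MSF1 (adjusted p = 0.076). None of these 4 genes had overlapping TPM between the groups, as was so for most tested genes (52.1% higher and 38.5% lower without overlap). DIA4, for serine, had the largest mitochondrial decrease, from 18.4 and 19.5 to 13.3 and 14.4 TPM, a log2 change of −0.58 ± 0.09 (edgeR adjusted p = 3.91e-05). MSW1, for tryptophan, followed at −0.48 ± 0.09 (edgeR adjusted p = 0.000291), going from 22.6 and 24.8 to 19.3 and 18.0 TPM. MSK1 was the highest mitochondrial member in all libraries, and after heat shock 4 cytosolic members besides GRS2 (ALA1, CDC60, ILS1 and MES1) were below it in both libraries and GLN4 in the first of them.

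**Figure D3:**
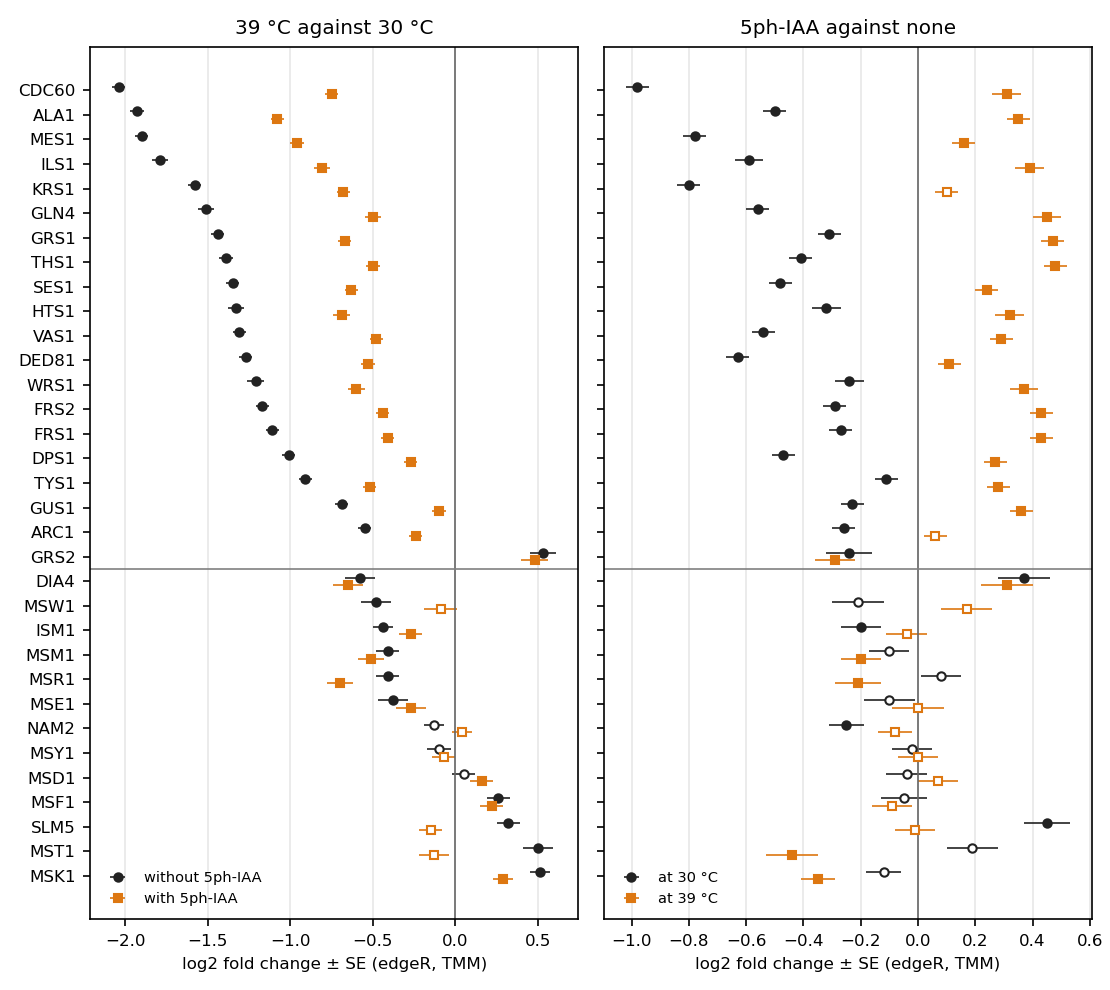
Log2 fold change ± SE (edgeR with TMM scaling) of each member for 39 °C against 30 °C (left) and for 5ph-IAA against none (right), with open symbols for changes whose adjusted p is 0.05 or higher. On the left, 19 of 20 cytosolic members lie below 0 in both series; on the right, the 30 °C points of all 20 lie below 0, where other scalings (library totals, TPM) put many of them above it, and 17 of the 39 °C points are called higher.

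The difference between the class means within a library depends on library scaling only through the 1 added to TPM. The mean of log2(TPM + 1) over the cytosolic members exceeded that over the mitochondrial members by 3.22 and 3.20 in control and by 2.06 in both heat shock libraries. The change was −1.15 ± 0.016 (SD combined over the groups, n = 2 each). In 12 of 12 amino acids with a cytosolic and a mitochondrial gene in the set, the ratio of the levels was lower in both heat shock libraries than in both control libraries. Its median went from 10.8 to 4.70. The lysine pair KRS1 and MSK1 changed most, from 14.5 and 14.8 to 3.24 and 3.61. The glutamate pair GUS1 and MSE1 changed least, from 9.60 and 10.8 to 8.32 and 8.02.

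**Figure D4:**
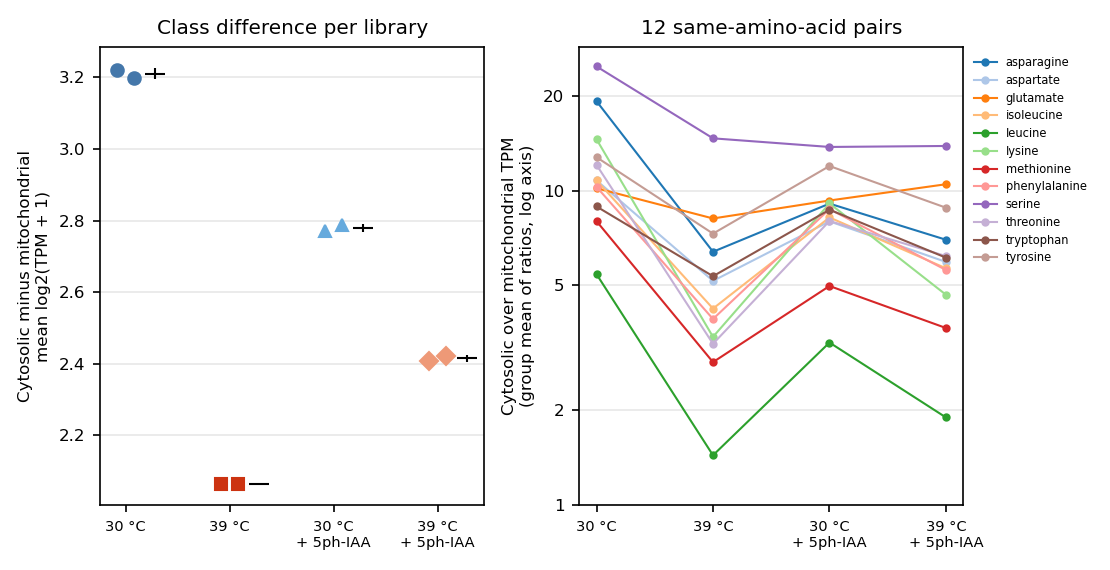
Left, cytosolic minus mitochondrial mean of log2(TPM + 1) in each library, with the group mean and SD beside the points; right, cytosolic over mitochondrial TPM (log axis) for 12 amino acids, as the mean of 2 libraries per group. The class difference is 3.22 and 3.20 in control, 2.06 in both heat shock libraries, 2.77 and 2.79 with 5ph-IAA at 30 °C and 2.41 and 2.42 with 5ph-IAA at 39 °C.

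The subunit genes of the phenylalanine enzyme moved together. FRS1 went from 269.7 and 256.5 to 132.0 and 134.4 TPM, and FRS2 from 230.6 and 220.4 to 113.2 and 106.8 TPM. Their log2 fold changes were −1.11 ± 0.04 and −1.17 ± 0.04 (edgeR adjusted p of 1.55e-11 and 1.08e-11), and the ratio of FRS1 to FRS2 stayed between 1.16 and 1.26 in all 8 libraries.

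The genes of the complex held by ARC1 did not keep their proportions. MES1 went from 200.2 and 187.9 to 58.1 and 56.0 TPM, a log2 change of −1.90 ± 0.04 (edgeR adjusted p = 5.4e-14). GUS1 went from 210.1 and 199.6 to 142.6 and 135.8 TPM, a log2 change of −0.69 ± 0.04 (edgeR adjusted p = 1.57e-09). Both were well separated from control, but by different amounts. The ratio of GUS1 to MES1 was 1.05 and 1.06 in control and 2.45 and 2.43 after heat shock. ARC1 over MES1 went from 3.37 and 3.50 to 8.54 and 8.86, whereas ARC1 over GUS1 was 3.21 and 3.30 before and 3.48 and 3.65 after.

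The cytosolic members were also split by presence of AAATTTT. The median log2 fold change was −1.32 over the 16 with it, all called lower. It was −1.30 over the 4 without it, which ranged from −1.93 to 0.53 and of which 3 were called lower. With just 4 genes lacking it, these medians cannot show whether the motif goes with the size of the change. Outside the members and the 74 listed ribosome biogenesis genes, 55.8% of 1345 tested genes with the motif were called lower after heat shock and 33.4% of 4268 genes without it. Other ribosome biogenesis genes were not removed. The RRPE and PAC cores occurred together in 445 of all 5720 windows and in 67 of those of the 74 listed genes, so many genes with both remain in this comparison. Longer cytosolic genes tended to have lower fold changes: across the 20 genes Spearman's rho between coding length and log2 fold change was −0.61. It was 0.06 across the 13 mitochondrial members and 0.02 across all tested genes, and since these genes share the same libraries the values are a description only.

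**Figure D5:**
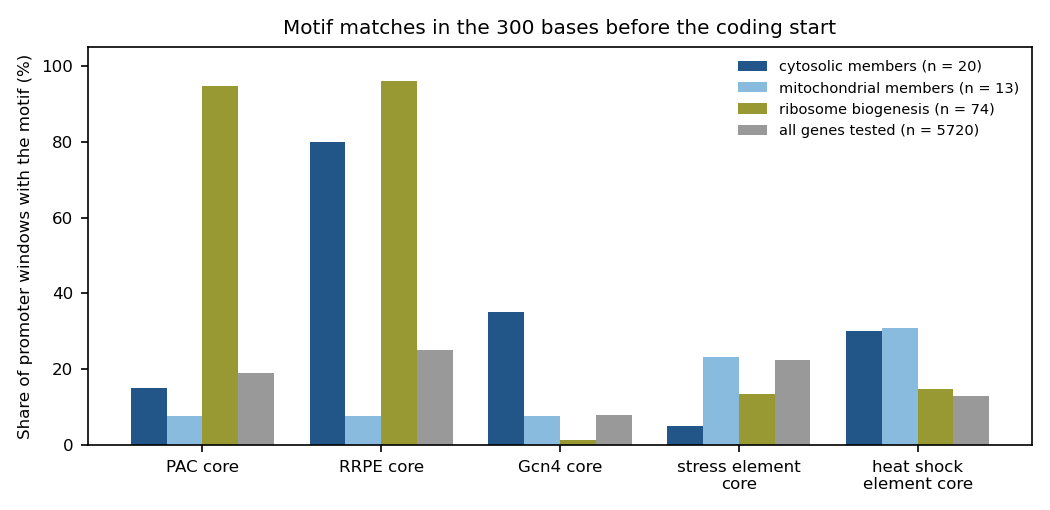
Share of windows (300 bases before the coding start) that hold each motif, in percent, for the cytosolic members (n = 20), the mitochondrial members (n = 13), 74 ribosome biogenesis genes and 5720 tested genes. The RRPE core is in 80.0% of cytosolic and 7.69% of mitochondrial windows against 25.1% of all, while the PAC core is in 15% of cytosolic windows and 94.6% of those of ribosome biogenesis genes.

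With 5ph-IAA at 30 °C, all 20 cytosolic members were called lower, but this direction depends on how libraries are scaled. Over all tested genes 51.7% were called, 28.1% lower and 23.6% higher. The median log2 fold change was −0.44 over the cytosolic members, −0.05 over the mitochondrial members and −0.02 over all genes. Scaled to library totals alone, these medians became −0.04, 0.35 and 0.383, and on log2(TPM + 1) they became 0.21, 0.58 and 0.614. Of all 33 members 2 were called higher and 22 lower, against 18 and 8 with library totals and 26 and 3 with limma on log2(TPM + 1). The cytosolic median lay below the median of all genes under each of the 3 scalings, and the mitochondrial median within 0.05 of it. The share of TPM held by ribosomal protein genes differed between these groups as given above, and its part in the scaling shift was not tested. Leaving those genes out of the TMM scaling factors gave a cytosolic median of −0.43. That choice does not alter library totals or TPM, so it cannot show what part the share had. The class difference, which depends on scaling only through the 1 added to TPM, went from 3.22 and 3.20 to 2.77 and 2.79. This was a change of −0.43 ± 0.02 (combined SD), or −0.45 with 0.1 added to TPM and −0.36 with 5 added. Of the 12 pairs, 10 had a lower ratio in both libraries.

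The largest decreases with 5ph-IAA at 30 °C were those of CDC60 and KRS1. CDC60 went from 127.9 and 121.8 to 101.8 and 97.0 TPM, a log2 change of −0.98 ± 0.04 (edgeR adjusted p = 3.91e-10). KRS1 went from 613.0 and 581.7 to 535.1 and 538.2 TPM, a log2 change of −0.80 ± 0.04 (edgeR adjusted p = 1.57e-09), and MES1 from 200.2 and 187.9 to 178.6 and 175.5 TPM, a log2 change of −0.78 ± 0.04 (edgeR adjusted p = 4.2e-09). These 3 were the cytosolic members whose TPM was lower without overlap, against 5.95% of tested genes that were lower in this way. In TPM 15 others were higher without overlap, as were all 13 mitochondrial members and 89.0% of tested genes. For FRS1, FRS2, GRS1, GRS2, GUS1 and ARC1 the edgeR log2 fold changes of −0.31 to −0.23 became positive with library totals (0.09 to 0.17) and on log2(TPM + 1) (0.34 to 0.42).

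SLM5 and DIA4 were called higher with 5ph-IAA at 30 °C under each of these scalings. SLM5 went from 19.3 and 18.1 to 40.1 TPM in both libraries, a log2 change of 0.45 ± 0.08 (edgeR adjusted p = 0.000235). DIA4 went from 18.4 and 19.5 to 39.1 and 38.0 TPM, a log2 change of 0.37 ± 0.09 (edgeR adjusted p = 0.00308). NAM2 (−0.25 ± 0.06, edgeR adjusted p = 0.00394) and ISM1 (−0.20 ± 0.07, edgeR adjusted p = 0.0222) were called lower on the log2 scale, with signs that turned under library totals (0.15 and 0.20) and on log2(TPM + 1) (0.38 and 0.43). The call of ISM1 was lost without either library with 5ph-IAA or without control replicate 2 (adjusted p of 0.0955 to 0.14), and that of GRS2 without either library with 5ph-IAA or without control replicate 1 (adjusted p of 0.0527 to 0.198). The other 9 mitochondrial members were not called.

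Heat shock in cells with 5ph-IAA again lowered 19 of 20 cytosolic members and raised GRS2, and the mitochondrial members had 5 lower, 3 higher and 5 not called. Over all genes 76.2% were called, 38.3% lower and 38.0% higher. The median log2 fold change was −0.52 over the cytosolic members, −0.13 over the mitochondrial members and 0.01 over all genes. The median over all genes became −0.323 with library totals and −0.212 on log2(TPM + 1), and the 4 members called higher and 24 lower became 0 and 30, and 1 and 28. ALA1 went from 170.9 and 166.3 to 69.2 and 67.3 TPM, a log2 change of −1.08 ± 0.04 (edgeR adjusted p = 5.08e-11). MES1 went from 178.6 and 175.5 to 75.8 and 80.0 TPM, a log2 change of −0.96 ± 0.04 (edgeR adjusted p = 1.93e-10). GUS1 had the smallest change among those called, −0.10 ± 0.04 on the log2 scale (edgeR adjusted p = 0.0355), and this call was lost when any library of these 2 groups was left out (adjusted p of 0.057 to 0.158). ARC1 changed by −0.24 ± 0.04, FRS1 by −0.41 ± 0.04, FRS2 by −0.44 ± 0.04 and GRS1 by −0.67 ± 0.04, all called lower.

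GRS2 rose from 18.8 and 17.3 to 21.3 and 21.5 TPM, a log2 change of 0.48 ± 0.08 (edgeR adjusted p = 0.000113). With library totals alone its change was 0.15 and was not called. MSR1, for arginine, had the largest mitochondrial decrease, from 43.7 and 37.7 to 20.7 and 22.1 TPM, a log2 change of −0.70 ± 0.08 (edgeR adjusted p = 1.75e-06). DIA4 went from 39.1 and 38.0 to 20.7 and 21.4 TPM, a log2 change of −0.65 ± 0.09 (edgeR adjusted p = 1.69e-05). Both genes were lower without overlap. MSK1 (0.29 ± 0.06), MSF1 (0.22 ± 0.07) and MSD1 (0.16 ± 0.07, for aspartate) were called higher on the edgeR scale, although library totals turned their signs (−0.04, −0.11 and −0.17) and MSF1 and MSD1 also turned on log2(TPM + 1) (−0.01 and −0.07). MSF1 lost its call without replicate 2 of either group (adjusted p of 0.0589 and 0.145), and MSD1 without any of 4 libraries, both heat shock replicates included (adjusted p of 0.0722 to 0.351). In TPM no mitochondrial member was higher without overlap and 10 of 13 were lower, against 32.6% and 55.7% of tested genes. The class difference went from 2.77 and 2.79 to 2.41 and 2.42, a change of −0.36 ± 0.015 (combined SD), which was −0.04 when class medians replaced the means. Of the 12 pairs 10 had a lower ratio in both libraries. The serine pair SES1 and DIA4 was the same within its spread, at 13.6 and 14.0 before and 13.9 in both libraries after.

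At 39 °C, cells with 5ph-IAA had higher values than cells without it for 17 of 20 cytosolic members. GRS2 was called lower, and ARC1 and KRS1 were not called. Over all genes 44.5% were called, 22.5% higher and 22.0% lower. The median log2 fold change was 0.32 over the cytosolic members, −0.04 over the mitochondrial members and 0.00 over all genes, and the median over all genes became 0.143 with library totals and 0.280 on log2(TPM + 1). Of all 33 members 18 were called higher and 5 lower, against 22 and 2 and against 28 and 0 under those scalings. THS1, for threonine, went from 133.4 and 126.6 to 216.2 and 228.5 TPM, a log2 change of 0.48 ± 0.04 (edgeR adjusted p = 8.01e-07). GRS1 went from 136.3 and 136.8 to 231.0 and 231.8 TPM, a log2 change of 0.47 ± 0.04 (edgeR adjusted p = 8.13e-07). FRS1 and FRS2 each rose by 0.43 ± 0.04, GUS1 by 0.36 ± 0.04 and MES1 by 0.16 ± 0.04 on the log2 scale. The call of MES1 was lost without replicate 2 of either 39 °C group (adjusted p of 0.0631 and 0.0849).

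GRS2 was at 21.2 and 21.6 TPM without and 21.3 and 21.5 TPM with 5ph-IAA at 39 °C, so the groups overlapped in TPM. Its edgeR log2 fold change was −0.29 ± 0.07 (adjusted p = 0.00567), and on log2(TPM + 1) it was 0.00. It was not called by DESeq2 (adjusted p = 0.0751) or with library totals (0.129). ARC1 was not called at 0.06 ± 0.04 (edgeR adjusted p = 0.275), and on log2(TPM + 1) it was called higher, at 0.35. Among the mitochondrial members 4 were called lower, 1 higher and 8 were not called. MST1 went from 39.2 and 40.7 to 37.9 and 34.1 TPM, a log2 change of −0.44 ± 0.09 (edgeR adjusted p = 0.00107). MSK1 went from 67.4 and 60.2 to 62.9 and 59.9 TPM, with overlap, and had a log2 change of −0.35 ± 0.06 (edgeR adjusted p = 0.000299). On log2(TPM + 1) neither was called (−0.15 and −0.05). DIA4 rose from 13.3 and 14.4 to 20.7 and 21.4 TPM, a log2 change of 0.31 ± 0.09 (edgeR adjusted p = 0.0129), a call lost without heat shock replicate 1 (adjusted p = 0.118) or without replicate 2 of the heat shock with 5ph-IAA (adjusted p = 0.06). The class difference was higher by 0.35 ± 0.009 (combined SD) with 5ph-IAA, or by 0.53 when class medians replaced the means, and 11 of 12 pairs had a higher ratio in both libraries, the serine pair being the exception.

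The interaction subtracts the heat shock change of untreated cells from that of treated cells, and a positive value for a gene that fell means a smaller fall. It was positive and called for 19 of 20 cytosolic members, for all but GRS2. Over all genes 48.9% were called, 26.0% higher and 22.9% lower. The median was 0.74 over the cytosolic members, −0.04 over the mitochondrial members and 0.00 over all genes. With library totals and on log2(TPM + 1) the median over all genes was −0.256 and −0.348, and the 20 positive and 4 negative calls among all members became 17 and 8, and 17 and 9. CDC60 had an interaction of 1.29 ± 0.06 (edgeR adjusted p = 2.96e-09). GLN4, for glutamine, had 1.02 ± 0.06 (edgeR adjusted p = 3.17e-08), its TPM going from 166.4 and 157.8 to 62.4 and 61.9 without 5ph-IAA and from 178.6 and 166.3 to 101.3 and 107.5 with it. MES1 had 0.94 ± 0.06, GRS1 0.77 ± 0.06, FRS2 0.72 ± 0.06, FRS1 0.70 ± 0.06 and GUS1 0.58 ± 0.06. ARC1 had 0.32 ± 0.06 (edgeR adjusted p = 0.000503), which turned to −0.04 and was not called on log2(TPM + 1).

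GRS2 had an interaction of −0.05 ± 0.11 (edgeR adjusted p = 0.719), which does not show that its changes were alike. It was called at −0.31 with library totals and −0.39 on log2(TPM + 1). Of the mitochondrial members, 4 had a called negative interaction and 1, MSW1, a called positive one. MST1 had −0.64 ± 0.13 (edgeR adjusted p = 0.00111), since its TPM went from 25.1 and 26.4 to 39.2 and 40.7 without 5ph-IAA and from 43.2 and 48.9 to 37.9 and 34.1 with it. SLM5 had −0.46 ± 0.10 (edgeR adjusted p = 0.00228), going from 19.3 and 18.1 to 26.2 and 24.8 TPM without 5ph-IAA and from 40.1 in both libraries to 31.9 and 30.1 TPM with it. Both genes rose on heat without overlap in untreated cells and were lower in TPM without overlap in treated cells, where edgeR called neither. MSW1 had 0.38 ± 0.13 (edgeR adjusted p = 0.0281), which was not called without replicate 1 of either 5ph-IAA group, control replicate 2 or heat shock replicate 2 (adjusted p of 0.0801 to 0.125), with DESeq2 (0.0677) or with library totals (0.392). The change in the class difference between 30 °C and 39 °C was smaller by 0.78 ± 0.022 (combined SD) with 5ph-IAA.

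Ratios within the complexes were also measured in the treated cells. GUS1 over MES1 was 1.56 and 1.54 with 5ph-IAA at 30 °C and 2.83 and 2.79 with 5ph-IAA at 39 °C. ARC1 over MES1 was 4.87 and 4.98 and then 8.37 and 7.90. GRS1 over GRS2 was 23.5 and 24.2 and then 10.8 in both libraries. These 3 ratios moved in the same direction on heat shock as in untreated cells, without overlap. ARC1 over GUS1 moved the other way, from 3.12 and 3.23 to 2.95 and 2.83, also without overlap.

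Synthetase genes outside the set were compared with the members. YDR341C (annotated by RefSeq as arginine--tRNA ligase), YHR020W (proline--tRNA ligase) and YNL247W (cysteine--tRNA ligase) had log2 fold changes after heat shock without 5ph-IAA of −1.35 ± 0.04, −2.33 ± 0.05 and −1.77 ± 0.05, all called lower by edgeR. AIM10, which resembles mitochondrial proline enzymes, was called higher at 0.34 ± 0.08. The interaction was called and positive for YDR341C (0.84 ± 0.06), YHR020W (1.27 ± 0.07) and YNL247W (0.96 ± 0.06) and not called for AIM10 (−0.13 ± 0.11). The 3 genes of the mitochondrial amidotransferase, which converts glutamate on mitochondrial glutamine tRNA to glutamine, all rose on heat shock: PET112 by 0.98 ± 0.09, GTF1 by 0.83 ± 0.09 and HER2 by 0.33 ± 0.11 on the log2 scale.

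Genes around the synthetases in the translation pathway were described by their counts after heat shock without 5ph-IAA. Over all tested genes 39.7% were lower and 42.5% higher in this comparison. Of 30 cytosolic translation factors 28 were lower and 1 higher (median −1.57), of 26 genes of nuclear tRNA processing and export 23 were lower and 3 higher (median −1.37), and of 52 amino acid synthesis genes 46 were lower and 2 higher (median −0.98). All 74 ribosome biogenesis genes were lower, with a median of −3.75. Among these lists the cytosolic members at −1.32 lay nearest to nuclear tRNA processing and export. Of 72 mitochondrial ribosome genes 58 were lower and 5 higher (median −0.50), and of 9 mitochondrial translation factors 6 were higher and 2 lower (median 0.68), with the mitochondrial members at −0.13 between these lists. Genes for the sensing of uncharged tRNA were listed together with GCN4, the gene of the transcription factor whose translation they control. GCN4 changed by −1.29 ± 0.05. GCN1 changed by −0.87 ± 0.07 and GCN20 by −0.59 ± 0.06, and the kinase gene GCN2 was not called at −0.10 ± 0.09. The same lists had interaction medians of 0.70 for cytosolic translation factors (27 of 30 called higher), 0.46 for amino acid synthesis (39 of 52), 0.45 for nuclear tRNA processing and export (15 of 26), 1.57 for ribosome biogenesis (73 of 74) and 0.09 for mitochondrial ribosome genes (18 of 72). The interaction median of the cytosolic members, 0.74 with 19 of 20 called higher, lay nearest to that of cytosolic translation factors. Mitochondrial translation factors had an interaction median of −0.39, with 2 of 9 called higher and 4 lower. Over all tested genes 26.0% were called higher and 22.9% lower for the interaction. The count of mitochondrial ribosome genes called higher was thus near the share of all genes, while just 1 of 72 was called lower.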

How the data were processed

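Poly-A RNA was measured in 8 libraries, 2 in each of 4 groups. For each library the authors deposited estimated counts and TPM of 6034 coding targets. Kallisto was used per the submitters' processing notes, and its version, transcript set and genome build were not given in the sources used here. Estimated counts that were not whole (tolerance 0.001) made up 6.78% to 7.42% of a library's values. All counts of the 33 members were whole, the lowest being 278. The library kit named in the labels' protocols does not mark strand, and no annotated gene overlaps a member's coding region. Member symbols matched R64 coding sequences of the same length in 33 of 33 cases, and 6018 of 6034 targets did so.

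Deposited estimated counts were rounded and tested with edgeR 4.0.16 in R 4.3.3 (limma 3.58.1, DESeq2 1.42.0 as alternatives): quasi-likelihood test, TMM scaling, filterByExpr, 1 fit of all libraries with a term per group and 4 residual degrees of freedom. Tests were 2-sided, with Benjamini-Hochberg adjustment over 5734 tested genes at 0.05. The SE is the absolute log2 fold change divided by the square root of F. Class means used log2 of deposited TPM with a pseudocount of 1. The script was tested on simulated data. The members, lists and motifs were chosen with earlier results of these data known. Members given with every library were those of the glycine, phenylalanine and Arc1 groups, the 2 largest called changes in each direction per class and comparison, and members called against their class. Sequence windows are 300 bases before the coding start. Replicate numbers were not used to pair the libraries in the main fit. Same-numbered deviations correlated at 0.1 between control and heat shock and at 0.169 between the groups with 5ph-IAA. Between the other groups they correlated at −0.057 to 0.036. These values do not settle whether same-numbered libraries were paired. Alternatives were other scalings, tools, filters and pseudocounts, a replicate block and leaving out each library.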

Additional observations from a re-analysis of the deposited data

Results flagged for a closer look

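The heat shock change differed between cells with and without 5ph-IAA, by the interaction test of edgeR with Benjamini-Hochberg adjustment over 5734 genes, for 24 members. The difference (change with 5ph-IAA minus change without it, log2 scale) was 1.29 for CDC60, 1.02 for GLN4, 0.98 for ILS1, 0.94 for MES1, 0.90 for KRS1, 0.89 for THS1, 0.85 for ALA1 and 0.83 for VAS1. It was 0.77 for GRS1, 0.74 for DED81 and DPS1, 0.72 for FRS2, 0.71 for SES1, 0.70 for FRS1, 0.64 for HTS1, 0.61 for WRS1, 0.58 for GUS1, 0.39 for TYS1 and 0.32 for ARC1. Among mitochondrial members it was 0.38 for MSW1, −0.23 for MSK1, −0.29 for MSR1, −0.46 for SLM5 and −0.64 for MST1. On log2(TPM + 1) the values of TYS1, ARC1 and MSW1 were 0.03, −0.04 and 0.02, and with library totals 0.14, 0.06 and 0.13. The 20 positive calls became 17 under either of these scalings, and the 4 negative calls became 9 and 8. Over all tested genes 48.9% were called in this test. No group has enough libraries for a test of single outlying samples.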

How the results depend on the processing

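Over the alternatives and all 33 members, 2707 values stayed on their side of the threshold, 110 lost the call, 58 gained it and 95 turned sign. A turn of sign was counted only where the main value or the alternative was called. Uncalled values that changed sign are thus among the 2707. Called higher with 5ph-IAA at 30 °C were 2 members, against 18 with library totals and 26 with limma on log2(TPM + 1) or log2(TPM + 0.1); called lower were 22, against 8, 3 and 3. For heat shock with 5ph-IAA, 4 called higher became 0 with library totals, 2 with DESeq2 and 1 with either limma setting. For 5ph-IAA at 39 °C, 18 called higher became 28 with either limma setting, and 5 called lower became 2 with library totals or DESeq2, 3 with median-of-ratios scaling or TMM without ribosomal protein genes, and 0 with either limma setting. For the interaction, 4 called lower became 8 with library totals, 2 with median-of-ratios scaling or DESeq2, and 9 with either limma setting. The cause was not tested.

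Among the members whose changes are given in the report, signs that turned for 5ph-IAA at 30 °C (library totals, log2(TPM + 1), log2(TPM + 0.1)) were those of FRS1 (0.13, 0.38, 0.38), FRS2 (0.11, 0.36, 0.36), GRS1 (0.09, 0.34, 0.34), GRS2 (0.16, 0.39, 0.41), GUS1 (0.17, 0.42, 0.42), ARC1 (0.14, 0.39, 0.39), ISM1 (0.20, 0.43, 0.45) and NAM2 (0.15, 0.38, 0.39). Over all 33 members, and counting only turns in which either value was called, 17 signs turned there with library totals and 26 with either limma setting. For heat shock with 5ph-IAA, again among the members given, they were those of MSD1 (−0.17, −0.07, −0.07) and MSF1 (−0.11, −0.01, −0.01), and of MSK1 with library totals (−0.04). On both TPM scales GRS2 with 5ph-IAA at 39 °C was 0.00 and the interaction of ARC1 was −0.04. Over all members and by the same count, 4 signs turned for heat shock with 5ph-IAA with library totals and 2 with either limma setting. Limma turned 7 for 5ph-IAA at 39 °C and 2 for the interaction. Further uncalled values changed sign, such as the interaction of MSD1, from 0.11 to −0.24 on log2(TPM + 1).

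The change in class difference moved with log2(TPM + 5), class medians, leaving out GRS2 and ARC1, leaving out ALA1, GRS1, HTS1 and VAS1, and pairs alone. It was −1.12, −0.86, −1.28, −1.08 and −1.28 for heat shock without 5ph-IAA and −0.40, −0.04, −0.43, −0.31 and −0.45 with it. For 5ph-IAA at 39 °C the first 4 gave 0.36, 0.53, 0.39 and 0.33. Without the fourth choice, the values were −0.36, −0.29, −0.45 and −0.47 for 5ph-IAA at 30 °C and 0.73, 0.82, 0.85 and 0.82 for the interaction.

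Leaving out each library gave class changes of −1.16 to −1.13, −0.44 to −0.42, −0.37 to −0.36, 0.34 to 0.36 and 0.77 to 0.79, in the order heat shock of untreated cells, 5ph-IAA at 30 °C, heat shock of treated cells, 5ph-IAA at 39 °C and interaction. Called higher in that order were 5, 2 to 3, 2 to 4, 15 to 18 and 19 to 20 members, and lower 25, 19 to 22, 22 to 24, 3 to 5 and 2 to 4. The lowest counts came without replicate 2 of 5ph-IAA at 30 °C (higher on heat shock with 5ph-IAA), without any 39 °C library (lower in 5ph-IAA at 39 °C), and without either control library, heat shock replicate 1 or replicate 1 of 5ph-IAA at 30 °C (lower in the interaction). A lone library was then assumed to vary like the other groups. With the replicate block, 3 members instead of 4 were called higher on heat shock with 5ph-IAA, since MSD1 (0.16) was no longer called (adjusted p = 0.0529), and no other call changed. With 2 libraries a group, small changes of the mitochondrial members, at lower counts, have the widest errors.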
